A study of Mus musculus with 4 samples.

Results

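Cells of the Mesp1 lineage that carried Hand1 together with Msx or Gata4 transcripts were examined in the E9.5 and E10.5 libraries of a single-cell RNA sequencing series of mouse embryos. They are called members here. A member had at least 1 UMI (a counted transcript molecule) of Hand1 and of at least 2 of Msx1, Msx2, Mab21l2 and Gata4. It had no UMI of Upk3b, a gene of the mesothelium, and none of Cdh5, a gene of the endothelium. It also had fewer than 3 of the 6 sarcomere genes Tnnt2, Myl4, Myl7, Actc1, Ttn and Myh6 at 2 or more UMIs. Members were selected on these 13 genes, and the values of those genes are therefore given only as a description. They numbered 469 of 12094 retained cells of the 2 late libraries, in a series of 22625 retained cells.

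All 4 libraries, 1 per stage from E8.0 and E8.25 to E9.5 and E10.5 (days of development), came from embryos labelled Mesp1Cre;Rosa26-GFPflox/+ on the Swiss Webster strain. In these embryos Cre recombinase driven by the Mesp1 gene of early mesoderm turns on a lasting GFP reporter, so that cells are marked by their origin and not by what they express at the time. Living GFP-positive cells of pooled embryos were sorted, from the upper part of the body at the early stages and from the pharyngeal apparatus with the heart at the late stages. No stage had a replicate and no group carried a deletion or treatment.

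Hand1 encodes a basic helix-loop-helix factor of the heart tube, the lateral plate and the extraembryonic mesoderm. Msx1 and Msx2 encode homeodomain factors that respond to BMP signals, Mab21l2 is needed for the ventral body wall and the eye, and Gata4 encodes a zinc-finger factor of the heart and of the mesoderm around the liver. The septum transversum is the sheet of mesoderm between heart and gut into which the liver grows and from which the proepicardium arises. Somatic mesoderm is the outer layer of the lateral plate, which builds the body wall.

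Members made up 7.01% of the retained cells at E9.5 (284 of 4052, 95% exact binomial interval 6.24 to 7.84) and 2.30% at E10.5 (185 of 8042, 1.98 to 2.65). These intervals, like the others given for single libraries, cover counting error only. The same rule took 1768 of 7577 cells at E8.0 (23.3%) and 260 of 2954 at E8.25 (8.80%), from another tissue. Members had a median of 17897.5 UMIs per cell at E9.5 and 16184 at E10.5, against 17391.5 and 15604 in all other retained cells. No barcode was shared by members of the 2 late libraries. When every cell was thinned to 8000 UMIs the shares were 4.47% and 1.43%.

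Several members lay near the limits of the rule. Hand1 stood at exactly 1 UMI in 85 of the 284 E9.5 members and in 72 of the 185 at E10.5. Exactly 2 of the 4 further genes were detected in 126 members at E9.5 and in 76 at E10.5. Just outside the rule, only 1 of the 4 genes was detected in 83 E9.5 cells and 89 E10.5 cells, and 57 and 28 cells met every condition but had a Upk3b UMI. A further 85 and 26 cells were left out for 3 or more sarcomere genes. In cells with Cdh5 and Pecam1 UMIs and no Nfatc1 UMI, an endothelial reference with a median of 14441.5 and 18594 UMIs, Hand1 was detected in 2 of 84 cells at E9.5 (2.38%) and in 8 of 211 at E10.5 (3.79%). In that reference Msx1 was detected in 27.4% and 19.9% of cells and Gata4 in 28.6% and 26.1%.

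The combination of the 4 genes varied among members. Msx1 was detected in 77.5% of members at E9.5 and in 81.6% at E10.5, Msx2 in 74.6% and 85.9%, and Mab21l2 in 73.9% and 69.7%. Gata4 was the least common, in 39.4% of members at E9.5 (112 of 284) and in 25.4% at E10.5 (47 of 185). Msx1, Msx2 and Mab21l2 without Gata4 was the most frequent combination, in 90 members at E9.5 and in 83 at E10.5. Mab21l2 with Gata4 alone came in 33 members at E9.5 and in 1 at E10.5. As CPM, the UMIs of a gene per 1000000 UMIs of the summed cells, Hand1 stood at 204 at E9.5 and 255 at E10.5, Msx1 at 160 and 165, Mab21l2 at 169 and 176, Msx2 at 194 and 137, and Gata4 at 52.1 and 24.2.

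The label of septum transversum mesoderm was checked on 10 of its genes outside the rule, and it was not borne by the members as a whole. Against all other retained cells Alcam, Gata5 and Gata6 were higher in members and Tbx18, Tcf21 and Aldh1a2 were lower, while Wt1, Hlx, Lhx2 and Nr2f2 did not pass the test. Tbx18, a factor of the proepicardium, had 20.8 CPM in members and 45.1 in other cells at E9.5, and 4.71 and 27.2 at E10.5. Aldh1a2, which makes retinoic acid, had 9.09 against 43.9 CPM at E9.5 and 8.47 against 27.9 at E10.5. Wt1, a factor of mesothelium and proepicardium, had 30.5 CPM in members at E9.5 and 12.1 in other cells, but 8.78 and 16.9 at E10.5. Of 10 genes of the somatic lateral plate and body wall, 6 were higher in members and none was lower. These were Twist1, Twist2, Hand2, Tbx3, Irx3 and Alx4. Cells that met the rest of the rule without Hand1 had similar levels, since the list summed to 794 CPM in members and 713 in those cells at E9.5 and to 869 and 851 at E10.5. Against them only Hand2 of the 10 genes passed as higher, and against cells with Upk3b only Prrx2. The cells are therefore named here by their rule, as Hand1 and Msx or Gata4 mesoderm.

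The first test asked which genes outside the rule set members apart from the other cells of the same library. UMIs were summed over members and over other cells in each late library and tested with edgeR's quasi-likelihood test with the library as a block and Benjamini-Hochberg adjustment. The 2 libraries are 2 stages and not replicates, which left 1 residual degree of freedom. Of 14388 genes tested, 332 were higher in members (2.31%) and 510 were lower (3.54%). By size alone, 47 of 5225 genes at 20 CPM or more were at least 2-fold higher in both libraries (0.9%) and 35 were at least 2-fold lower (0.67%). With DESeq2 198 genes were higher and 254 lower. With cells called as doublets removed 231 were higher and 325 lower, and without the library block none passed edgeR's test at an adjusted p below 0.05, with 975 at an unadjusted p below it.

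Among genes that passed and reached 20 CPM in the higher class of both libraries, Dkk1 showed the largest increase. Dkk1 encodes a secreted inhibitor of canonical Wnt signalling that blocks the LRP co-receptors. It had 121 CPM in members at E9.5 (exact Poisson interval 111 to 130) and 171 at E10.5 (157 to 186), against 14.3 and 12.2 CPM in other cells. On the log2 scale the difference was 3.36 (SE 0.13, edgeR adjusted p = 6.63e-07), and in both libraries members were far above the other cells. A Dkk1 UMI was found in 53.2% of members and 10.46% of other cells at E9.5, and in 65.9% and 7.01% at E10.5. Under the same rule the early libraries held 21.2 CPM at E8.0 and 33.9 at E8.25. Late cells that met the rest of the rule without Hand1 had 29.9 CPM of Dkk1 at E9.5 and 63.9 at E10.5. Members lay above those cells by a smaller log2 difference of 1.67 (SE 0.13).

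Next among the largest increases was Ppp2r2b, followed by Dkk2, a relative of Dkk1. Dkk2 had 29.7 against 4.90 CPM at E9.5 and 50.5 against 8.42 at E10.5 (log2 difference 2.51, SE 0.15, edgeR adjusted p = 7.90e-06). Ppp2r2b, a regulatory subunit of protein phosphatase 2A, had 75.7 against 12.1 CPM and 54.9 against 7.29. Alcam, a cell adhesion molecule, stood at 279 CPM in members at E9.5 and 98.5 at E10.5, against 69.9 and 23.3 (log2 difference 1.96, SE 0.09, edgeR adjusted p = 1.10e-06). Tnc, which encodes the matrix glycoprotein tenascin C, had 53.8 against 15.5 and 82.5 against 16.4 CPM. The remaining genes of the 10 were Stard8, Phlda2, Gap43, 5033428I22Rik and Crispld1, with log2 differences between 1.75 and 2.27. For Phlda2, an imprinted gene, 1 member cell held 27.7% of the UMIs at E10.5.

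Promoters of 3 genes on which the comparisons turn are printed here from RefSeq (build GRCm38.p6, each 300 bases, 250 before and 50 after the start, 5′ to 3′ on the gene's strand). Dkk1 had the largest increase in members, Alcam the highest level of the 10 leading genes at E9.5, and Tbx18 the largest difference of the tested septum transversum genes between members with and without Gata4. All 3 lie on the minus strand, Dkk1 at chr19:30549447-30549746, Alcam at chr16:52453032-52453331 and Tbx18 at chr9:87731211-87731510. Capitals mark matches on either strand to CANNTG, the core that basic helix-loop-helix factors bind, to GATAA, a core of GATA factors, and to TAATTG, a core of homeodomain factors. No 2 matches overlap in these windows. CANNTG is held by 72.3% of the 32851 RefSeq promoters, GATAA by 25.4% and TAATTG by 8.0%.
Dkk1: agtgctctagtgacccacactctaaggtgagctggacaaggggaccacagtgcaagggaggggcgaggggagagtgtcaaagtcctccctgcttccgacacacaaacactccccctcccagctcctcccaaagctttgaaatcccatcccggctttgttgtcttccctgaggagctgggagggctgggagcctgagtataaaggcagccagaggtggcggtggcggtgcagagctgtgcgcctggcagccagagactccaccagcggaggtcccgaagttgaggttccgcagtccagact
Alcam: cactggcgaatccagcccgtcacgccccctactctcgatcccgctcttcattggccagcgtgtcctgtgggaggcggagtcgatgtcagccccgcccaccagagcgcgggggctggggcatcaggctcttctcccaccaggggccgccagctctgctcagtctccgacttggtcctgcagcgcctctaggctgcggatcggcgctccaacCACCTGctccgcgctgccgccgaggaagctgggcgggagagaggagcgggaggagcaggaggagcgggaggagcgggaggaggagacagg
Tbx18: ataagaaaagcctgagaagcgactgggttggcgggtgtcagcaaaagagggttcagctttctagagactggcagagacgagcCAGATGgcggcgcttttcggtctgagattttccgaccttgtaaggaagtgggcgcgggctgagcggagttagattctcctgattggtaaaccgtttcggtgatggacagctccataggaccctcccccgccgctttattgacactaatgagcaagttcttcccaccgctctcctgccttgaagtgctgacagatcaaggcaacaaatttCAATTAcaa
The Dkk1 window holds none of the 3 motifs, the Alcam window holds 1 CANNTG, and the Tbx18 window holds 1 CANNTG and 1 TAATTG.

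By the same level rule, the genes with the largest decreases in members were those of cardiac muscle and endothelium. Tnni3, Myl2, Myl3, Myh7, Tnnc1, Csrp3 and Sh3bgr belong to heart muscle and Cldn5 and Emcn to endothelium, and Chchd10 encodes a mitochondrial protein. Myl2, a myosin light chain of the ventricle, had 4.54 CPM in members against 197 in other cells at E9.5, and 3.14 against 44.3 at E10.5. Cldn5, a tight junction gene, had 0.757 against 23.1 and 0.941 against 33.8. Members were chosen for few sarcomere transcripts and no Cdh5, which are genes of the same 2 cell types. Tbx1, a factor of the pharyngeal mesoderm, was lower in members, with 10.0 against 81.5 CPM at E9.5 and 15.1 against 52.7 at E10.5 (log2 difference -2.54, SE 0.20, edgeR adjusted p = 3.78e-05).

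**Figure D1:**
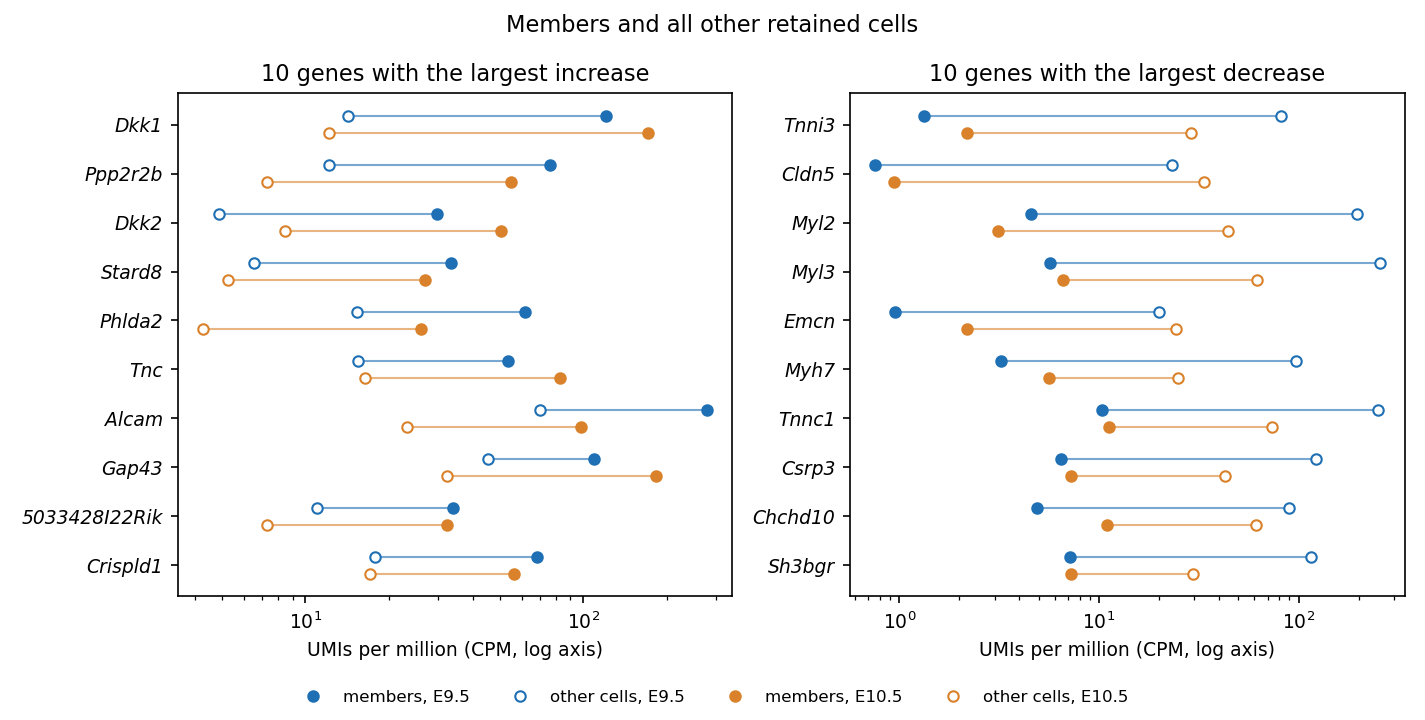
CPM (log axis) of the 10 genes with the largest increase and the 10 with the largest decrease in members against all other retained cells, with 1 summed value per library. Filled points are members, open points other cells, blue E9.5 and orange E10.5; in each of the 20 genes the filled points lie on the same side of the open ones in both libraries, as for Dkk1 at 121 against 14.3 and 171 against 12.2.

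Genes of the BMP and Wnt pathways were counted on fixed lists. BMP ligands act through Smad proteins, and Id, Msx and Tbx2 or Tbx3 genes are among the known targets. Of 28 BMP pathway genes tested, 10 were higher in members and 1 was lower, with a median log2 difference of 0.33 beside -0.01 over all genes tested. Msx1 and Msx2, used by the rule, are such targets themselves, so this list was not independent of the choice of members. The ligands Bmp4 (121 against 87.9 CPM at E9.5 and 151 against 54.2 at E10.5) and Bmp5 (30.4 against 7.90 at E10.5) were higher. Of the inhibitors Bambi, a decoy receptor, was higher, with 395 against 161 and 418 against 92.3 CPM, as were Smad6 and Smad7. The targets Id1, Id2, Id4, Tbx2 and Tbx3 were higher too. Fst, which encodes the BMP and activin antagonist follistatin, was the member of the list that was lower, at 0.189 against 16.8 CPM and 1.88 against 6.55. The cells nearest to members in the rule differed less on this list. Against cells without Hand1, Bmp5 and Bambi of 27 genes were higher and Fst lower (median 0.03), with list sums of 2740 CPM in members and 3116 in those cells at E9.5 and of 2890 and 2490 at E10.5. Against cells with Upk3b, Id2 and Id3 were higher and Bmp2 and Bmp4 lower.

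Of 26 Wnt pathway genes, 11 were higher and 2 lower (median 0.32). Those that were higher included the ligands Wnt2 and Wnt6, the secreted inhibitors Dkk1, Dkk2, Sfrp1 and Sfrp5, the receptors Fzd1, Fzd7 and Ror1, and the targets Lef1 and Axin2. Wnt2 had 191 against 100 CPM at E9.5 and 114 against 30.2 at E10.5. The ligands Wnt4 and Wnt5a were lower, and Wnt4 had 1.14 against 10.4 and 0.627 against 9.34 CPM. Inhibitors and targets of the pathway were both among the genes that were higher. Against cells with Upk3b, 2 of 21 Wnt genes were higher and 2 lower (median -0.15). The list summed to 1284 CPM in members and 1419 in those cells at E9.5, and to 1073 and 1030 at E10.5. Against cells without Hand1, 7 of 24 were higher and none was lower (median 0.05), with sums of 861 and 843 CPM in those cells.

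Of 36 matrix genes 10 were higher, among them Tnc, Col1a1, Fn1, Sparc and Ptn, and Col2a1, Col4a1, Col4a2 and Col13a1 were lower. Of 13 imprinted genes 6 were higher and Cdkn1c, an inhibitor of the cell cycle, was lower. Dlk1, a Notch-like ligand, had 1191 against 469 CPM at E9.5 and 551 against 180 at E10.5 (log2 difference 1.39, SE 0.08, edgeR adjusted p = 3.64e-06). Of 17 retinoic acid genes 1 was higher and 4 were lower. The higher one was Crabp1, a binding protein, with 319 against 139 and 571 against 212 CPM. Of 13 Hedgehog list genes 5 were lower, namely Ptch1, Hhip, Foxf1, Foxf2 and Osr1, and Gli2 and Gas1 were higher.

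The remaining lists were counted in the same way. Of 7 cranial mesenchyme genes 4 were higher and Foxc1 and Foxc2 lower (median 1.18). The list shares Prrx1, Twist1 and Alx4 with the somatic one. Against cells without Hand1 only 1 of the 7 was higher and none was lower (median -0.23). There the list summed to 285 CPM in members and 235 in those cells at E9.5, and to 427 and 501 at E10.5. Of 8 splanchnic genes Wnt2 was higher and Foxf1, Foxf2, Osr1 and Hoxb1 were lower (median -0.63). Of 8 mesothelial genes Krt8 and Krt18 were higher and Upk1b was lower (median -0.28). Of 8 cardiac cushion genes Tbx2 and Has2 were higher and Sox9 and Nfatc1 lower. Of 15 cardiac factors Gata5, Gata6, Hand2, Tbx2 and Tbx3 were higher and Tbx1, Tbx18 and Hopx lower. Of 7 branchiomeric muscle genes 5 were lower (median -2.09), as were 2 of 3 cardiomyocyte genes, 3 of 5 endothelial genes, 6 of 6 blood genes and 5 of 5 macrophage genes. Of 18 Hox genes Hoxb2, Hoxb3 and Hoxb7 were higher and Hoxa5 and Hoxb1 lower. Of 15 FGF genes Fgfr3 was higher and Fgf8, Spry1 and Dusp6 lower, and of 9 PDGF and chemokine genes Pdgfra was higher and Pdgfa lower. No gene passed among 6 limb, 6 neural crest, 2 hepatic and 1 epithelial genes tested. None of 15 S phase genes and none of 15 G2/M genes passed edgeR's test (adjusted p).

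Markers of other cell types were given for the same sums. Neural crest genes summed to 1.33 CPM in members at E9.5 and 13.8 at E10.5, hepatic genes to 2.46 and 1.88, and macrophage genes to 0.189 and 4.70. Sox10, a defining neural crest gene, was at 0 CPM in members at E9.5 and 0.314 at E10.5. Blood genes summed to 10.0 CPM in members at E9.5 but 13414 at E10.5, where other cells had 104330. Every member at E10.5 held an embryonic haemoglobin (Hba-x) UMI, and 1 member cell held 34.8% of the Hba-x UMIs. With mitochondrial, ribosomal protein and haemoglobin genes left out of the CPM, 329 genes passed the size rule between stages, beside 259 with them.

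The second comparison set members against 57 and 28 cells with a Upk3b UMI that met the rest of the rule. Those cells were deeper, with medians of 23469 and 18417 UMIs against 17897.5 and 16184 in members. Upk3b stood at exactly 1 UMI in 18 of the 57 and in 7 of the 28. Of 9695 genes 174 were higher in members (1.79%) and 314 were lower (3.24%), and at 20 CPM or more 12 of 5292 genes were at least 2-fold higher in both libraries (0.227%) and 37 lower (0.699%). With DESeq2 7 were higher and 35 lower. Of 7 mesothelial genes tested beside Upk3b, 7 were lower in members (median -1.77), namely Krt7, Krt8, Krt18, Krt19, Lrrn4, Podxl and Ezr. Podxl, a sialomucin of apical membranes, had 17.6 CPM in members and 80.2 in the Upk3b-positive cells at E9.5, and 2.82 and 44.7 at E10.5 (log2 difference -2.56, SE 0.24, edgeR adjusted p = 2.02e-23). The p-values of this comparison cannot be set beside those of the first. There Dkk2, with a log2 difference of 2.51 and a smaller SE of 0.15, had an edgeR adjusted p of 7.90e-06. The small values here still rest on 2 libraries without replicates. Krt18, a keratin, had 170 against 474 and 67.4 against 195 CPM. Upk3b is itself mesothelial and was used by the rule, so a lower level of its companions was built into this contrast.

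Genes outside the mesothelial list also separated these cells. Cryab, a small heat shock protein, showed the largest decrease, with 11.7 against 81.6 CPM at E9.5 and 3.14 against 28.7 at E10.5. It was followed by F3, Podxl, Lrrn4, Dcn, Rab32, Bcam, Igfbp2, Rasgrp3 and Krt19. Podxl, Lrrn4 and Krt19 are on the mesothelial list and were counted above. Igfbp2, which binds insulin-like growth factors, had 110 against 505 and 107 against 247 CPM (log2 difference -1.83, SE 0.10). Its edgeR adjusted p of 3.97e-64 carries the same limit as that of Podxl. Wnt6, an epithelial Wnt ligand, had 11.7 against 86.0 and 2.82 against 7.97 CPM. The largest increases in members were those of Ppp1r14c, Gal, Shisa2, Fam212a, Cdo1, Dnm3os, Cited1, Cotl1, Ramp2 and Rgs5. Shisa2, an inhibitor of Wnt and FGF receptors, had 50.7 against 5.88 and 65.2 against 30.3 CPM. Gal, the galanin precursor, had 42.8 against 7.35 and 25.7 against 3.19. Dkk1 was higher in members (log2 difference 0.66, SE 0.14), but Dkk2 was lower, with 29.7 against 97.8 CPM and 50.5 against 60.6.

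The third comparison used cells with no Hand1 UMI that met the rest of the rule, 495 at E9.5 and 677 at E10.5. Of 11660 genes 216 were higher in members (1.85%) and 125 were lower (1.07%), and by size 20 of 5248 genes were higher (0.381%) and 6 lower (0.114%). With DESeq2 45 were higher and 17 lower. Acta2 and Tagln, genes of smooth muscle actin and its binding protein, were among the largest increases. Acta2 had 237 CPM in members against 37.9 at E9.5 and 155 against 19.3 at E10.5 (log2 difference 2.79, SE 0.10, edgeR adjusted p = 1.20e-07). Tagln had 80.3 against 19.8 and 130 against 48.0 CPM. Krt8 had 198 against 50.9 and 50.5 against 14.8 CPM. Lum, which encodes the matrix proteoglycan lumican, had 86.2 against 4.93 CPM at E9.5 and 22.9 against 9.06 at E10.5. The other genes of the 10 were Phlda2, Dkk1, Popdc2, Ahnak, Itm2a and Rgs5.

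Ebf1 showed the largest decrease in members against these Hand1-zero cells, followed by Tbx1 and Hoxa5. Ebf1, a factor of muscle and connective tissue progenitors, had 8.52 against 49.3 CPM at E9.5 and 11 against 43.9 at E10.5 (log2 difference -2.31, SE 0.17, edgeR adjusted p = 5.95e-05). Tbx1 had 10.0 against 58.9 and 15.1 against 34.1 CPM, and Osr1, a factor of the splanchnic mesoderm, 10.2 against 77.9 and 39.2 against 57.0. Cxcl13, Igfbp7, Hapln1, Sox9 and Pdlim3 were lower as well. Of 8 splanchnic genes Foxf1, Hoxb1 and Osr1 were lower and Wnt2 was higher (median -0.20), and of 6 branchiomeric genes 2 were lower (median -1.19). Of 15 Hox genes tested 6 were lower and Hoxb2 was higher (median -0.55 beside -0.01 over all genes tested). The 6 were Hoxa3, Hoxa4, Hoxa5, Hoxb1, Hoxc4 and Hoxd4, which pattern the body along its axis. Hoxa5 had 17 against 48.1 CPM and 12.2 against 67.7. Of 24 Wnt genes 7 were higher and none was lower, and of 6 mesothelial genes Krt8, Krt18 and Lrrn4 were higher.

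The fourth comparison was made among members themselves, between those with a Gata4 UMI (112 and 47 in stage order) and those without (172 and 138). Members without Gata4 had to carry 2 of Msx1, Msx2 and Mab21l2 by the rule, and a cell without a UMI may still express the gene. Of 9753 genes 164 were higher with Gata4 (1.68%) and 171 lower (1.75%), and by size 44 of 5321 genes were higher (0.827%) and 18 lower (0.338%). With DESeq2 23 were higher and 11 lower, and with cells called as doublets removed 45 were higher and 37 lower. Scaled by library totals alone, 389 were higher and 172 lower. Median depth was 19420 against 17321.5 UMIs at E9.5 and 18444 against 15629 at E10.5.

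Genes of the septum transversum list went with Gata4. Gata4 is itself a gene of the mesoderm around the liver and was used by the rule. A higher level of its companions was therefore in part built into this contrast. Of 8 tested, 5 were higher in members with Gata4 and none was lower (median 1.76 beside -0.01 over all genes tested). Tbx18 had 47.8 CPM with Gata4 and 0.986 without at E9.5, and 13.6 and 1.30 at E10.5 (log2 difference 4.71, SE 0.47, edgeR adjusted p = 9.37e-05). It was excluded by its level of under 20 CPM at E10.5 from the ranking of largest changes. Nr2f2, a nuclear receptor of veins and mesenchyme, had 255 against 41.4 and 155 against 53.8 CPM. Wt1 had 58.5 against 9.86 CPM at E9.5, but at E10.5 its log2 ratio was 0.30 with a counting interval of -1.03 to 1.52. Tcf21 and Aldh1a2 were also higher. Lhx2 and Hlx, both factors of the mesoderm around the liver, did not pass the filter on low counts, and at E9.5 they had 121 against 3.29 CPM and 45.6 against 2.96. At E10.5 Lhx2 had 1.13 against 3.04 CPM and Hlx 2.26 against 2.61. Each of the 2 genes had only 8 UMIs over all E10.5 members, too few to place either side higher. Alcam had 507 against 111 CPM at E9.5 and 61.0 against 113 at E10.5, and the 2 libraries thus lay on opposite sides.

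Genes of the somatic list went with the absence of Gata4. Members without Gata4 had to carry 2 of Msx1, Msx2 and Mab21l2 by the rule, so this direction was not independent of the split. Of 10 tested, 5 were lower in members with Gata4 and none was higher (median -1.07), namely Prrx1, Twist1, Tbx3, Irx3 and Irx5. With doublets removed 3 genes of each list passed in the same directions, and with DESeq2 3 of the septum transversum and 1 of the somatic list. Prrx1, a homeodomain factor of limb and body wall mesenchyme, had 35.8 CPM with Gata4 and 192 without at E9.5, and 63.3 and 108 at E10.5 (log2 difference -1.80, SE 0.27, edgeR adjusted p = 0.00202). Hand2 stood at 75.5 and 78.2 CPM at E9.5 and 145 and 122 at E10.5 (edgeR adjusted p = 0.982). Of 7 cranial mesenchyme genes 4 were lower with Gata4, Prrx1 and Twist1 of the somatic list among them (median -1.06). Of 3 branchiomeric muscle genes tested, 3 were higher with Gata4 (median 1.64), Tcf21 and Ebf1 among them. Tcf21 is also on the septum transversum list. Of 5 blood genes 4 were lower, and blood genes summed to 4913 CPM with Gata4 and 16680 without at E10.5, where the member richest in haemoglobin had no Gata4 UMI. Of 8 genes of the splanchnic list, Foxf1, Foxf2 and Osr1 were higher with Gata4. Foxf1, a target of Hedgehog signals from the gut, had 113 against 14.1 and 70.1 against 17.8 CPM (log2 difference 2.48, SE 0.24, edgeR adjusted p = 7.56e-05).

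**Figure D2:**
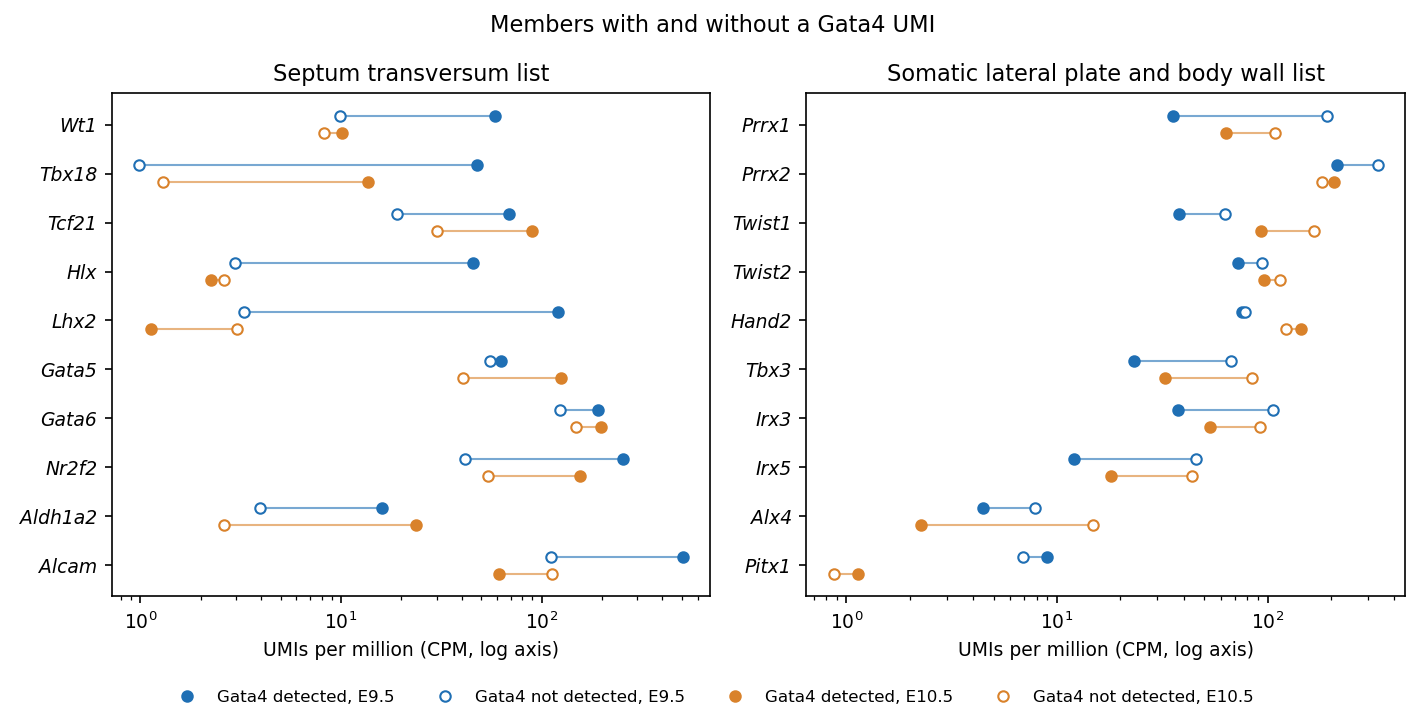
CPM (log axis) of the 10 septum transversum genes and the 10 somatic genes in members with a Gata4 UMI (filled points) and without one (open points), blue E9.5 and orange E10.5, 1 summed value per library. At E9.5 the filled points of Lhx2 (121 against 3.29) and Tbx18 (47.8 against 0.986) lie to the right, while Prrx1 (35.8 against 192) lies to the left.

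Further genes with the largest increases with Gata4 were Vsnl1, Tbx20, Gucy1a3, Creb5, Sdpr, Cthrc1, Hapln1 and Gucy1b3. Gucy1a3 and Gucy1b3 encode the 2 subunits of soluble guanylate cyclase, the receptor of nitric oxide. Tbx20, a cardiac T-box factor, had 31.7 against 8.54 CPM at E9.5 and 228 against 25.6 at E10.5. For Hapln1, a link protein of the matrix, 1 cell held 32.4% of the UMIs of members at E10.5. Of 13 imprinted genes, Igf2, H19, Cdkn1c, Plagl1 and Igf2r were higher with Gata4, and Mest and Nnat were lower. Cdkn1c had 1189 against 270 CPM and 1079 against 324 (log2 difference 1.87, SE 0.09, edgeR adjusted p = 1.34e-07). The largest decreases were those of Kazald1, Ebf3, Tlx1, Ppp2r2b, Tmem132c, Stard8, Crispld1, Prrx1, Gap43 and Dkk2. Of these, Ppp2r2b, Stard8, Crispld1, Gap43 and Dkk2 were also among the 10 largest increases of members over other cells. Dkk1 was lower with Gata4, at 46.5 against 175 and 89.3 against 202 CPM.

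Members of each library were clustered on their own, without mitochondrial, ribosomal, haemoglobin and X-inactivation genes, to describe how they vary. At E9.5 there were 6 groups of 21 to 82 cells and at E10.5 there were 5 of 22 to 56 cells. Groups were defined by the genes named here, so these are descriptions without a test, and the number of groups changes with the resolution. A group took a name only where at least 3 of its 10 leading genes were on a marker list.

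Group 3 at E9.5 (51 cells) was septum transversum-like, with Lhx2, Nr2f2, Tbx18, Hlx and Alcam among its 10 leading genes. In this group Lhx2 had 147 CPM against 26.7 in other members, Tbx18 61.4 against 9.45, Hlx 60.6 against 9.94 and Alcam 610 against 186. Gata4 was detected in 48 of the 51 cells, and Msx2 in 22. Lhx2 and Tcf21 also stand on the list of branchiomeric muscle. That list summed to 305 CPM in group 3, 334 in group 4 and 220 in group 5, beside 40.3, 24.2 and 41.4 in groups 1, 2 and 6. Its gene Myf5 was at 0 CPM in group 3, but groups 1 and 2 held only 1 UMI each, too few to tell groups apart. Group 4 (34 cells) had similar levels of Lhx2 (138 CPM), Hlx (50.5) and Wt1 (78.3), with Gata4 in 31 cells. It was led by Tubb3, Klf2, Ramp2, Apoe, Igfbp7, Cdkn1c, Pdlim3, Tagln2, Sdpr and Sox9 and stays unnamed. In 1 of its cells lay 92.7% of the Klf2 UMIs.

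Group 1 (82 cells) and group 2 (73 cells) were the largest at E9.5. Gata4 was detected in 1 cell of group 1 and in 17 of group 2, while Msx2 was detected in 79 and 65 cells. Group 1 was led by Kazald1, 3632451O06Rik, Tlx1, Mecom, Ebf3, Isl1 and Spry2, and it had Isl1, a factor of second heart field progenitors, at 89.4 CPM against 13.5 in other members. Prrx1 had 249 against 82.5 CPM in group 1 and Alcam 6.59 against 374. Group 2 was led by Gal, Cyp26a1, Tnfaip8, Mogat2, Wnt2 and Alx1, and Cyp26a1, which degrades retinoic acid, had 51.2 CPM against 5.93. Lhx2 was at 0 CPM in group 1 and at 1.42 in group 2, and Tbx18 at 0 and 1.42.

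Group 5 (23 cells) stood apart by its matrix genes. Lum had 957 CPM against 25.3, Postn 661 against 19, Col1a1 484 against 89.7 and Col3a1 499 against 92.6, and Acta2 reached 1163 against 173. Postn encodes periostin, a protein of cardiac cushions and fibrous tissue, but no other gene of the cushion list led the group. Group 6 (21 cells) was mesothelium-like, with Podxl, Lrrn4 and Krt18 in the lead although Upk3b was at 0 by the rule. Its Wnt6 level was 75.8 CPM against 5.98, beside 86.0 CPM in the Upk3b-positive neighbours at E9.5.

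At E10.5 group 5 (22 cells) was splanchnic mesoderm-like, with Osr1, Foxf1 and Foxf2 in the lead. Osr1 had 206 CPM against 9.60 in other members, Foxf1 158 against 9.97 and Tcf21 173 against 24.0. Gata4 was detected in 17 of its cells and Mab21l2 in none of 22, and Lhx2 and Hlx were not among its leading genes. Group 4 (31 cells) had the highest Hand1, with 682 CPM against 186, and Tbx20 had 449 against 22.9 and Nkx2-5 181 against 15.7. Pf4, Ppbp and Clec1b, genes of platelets and megakaryocytes, also led group 4, but all of their UMIs in it came from 1 cell. Group 1 (56 cells) had Alcam at 224 CPM against 43.0, along with Alas2 and Car2 of red cells, of which 44% and 46.4% of the UMIs lay in 1 cell. Group 2 (38 cells) was led by genes of mitosis such as Cenpf, Plk1, Aurka and Ube2c, and group 3 (38 cells) by Pcp4, Hgf, Pcp4l1, Krt18 and Cited1. Cells called as doublets numbered 8 in group 2 and 6 in group 4, beside 2, 0 and 3 in groups 1, 3 and 5. No group at E10.5 was led by Lhx2, Hlx or Tbx18.

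**Figure D3:**
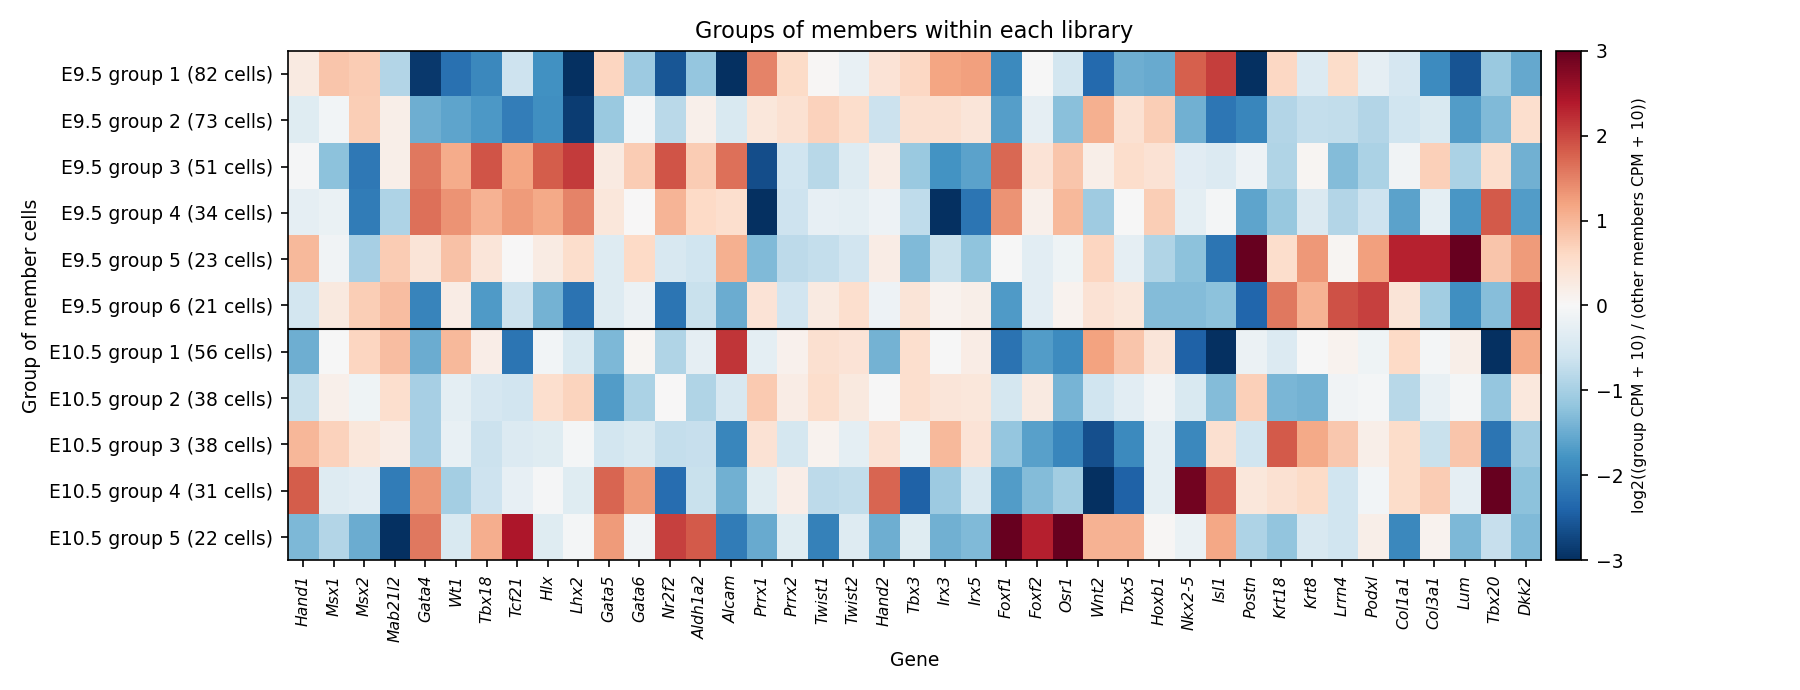
Each row is a group of members clustered within its library and each column a gene; colour is log2 of group CPM plus 10 over the CPM of the other members of that library plus 10, from blue (lower) to red (higher), cut at 3 either way. Gata4, Tbx18, Hlx and Lhx2 are red in groups 3 and 4 at E9.5 (Lhx2 at 147 and 138 CPM), and Osr1, Foxf1 and Foxf2 are red in group 5 at E10.5.

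Members of the 2 late libraries were then set side by side. With 1 library per stage there is no test, and a gene was counted where its CPM differed at least 2-fold, with a counting interval that left out no change, and reached 20 CPM at the higher stage. Of 5796 genes at that level, 169 were higher at E10.5 (2.92%) and 90 lower (1.55%). In all other retained cells 131 of 5575 genes were higher and 152 lower. Of the 169 and 90 genes, 60 and 45 also passed in the same direction in other cells.

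Septum transversum genes were lower at E10.5. Of 9 at 20 CPM or more, 5 were lower and none was higher (median log2 ratio -1.50 beside -0.03 over all such genes). Lhx2 had 53.0 CPM in members at E9.5 (interval 47.0 to 59.6) and 2.51 at E10.5 (1.08 to 4.94), a log2 ratio of -4.40 (-5.63 to -3.40), beside -2.24 in other cells. Hlx had 21.0 and 2.51 CPM (log2 ratio -3.07), Tbx18 20.8 and 4.71 (-2.15), Wt1 30.5 and 8.78 (-1.80) and Alcam 279 and 98.5 (-1.50). In other cells the log2 ratio of Wt1 was 0.48 and that of Alcam -1.59. Gata4-detected members were also fewer at E10.5, and whether fewer cells of a kind or less RNA per cell lay behind these levels cannot be told apart in the sums.

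Among other genes that were lower at E10.5, Postn differed in sign from the other cells. Postn had 61.0 CPM at E9.5 and 7.53 at E10.5 (log2 ratio -3.02, -3.68 to -2.42), beside 0.42 in other cells. Itm2a, a membrane protein, had 421 and 32.3 CPM (-3.70), Shisa3 54.0 and 2.51 (-4.43), and Sfrp5 90.1 and 5.02 (-4.17). Their log2 ratios in other cells were -2.37, -3.03 and -3.33. Lin28a, a regulator of developmental timing, had 28.4 and 2.51 CPM (-3.50), beside -2.60 in other cells. Tpm3-rs7, Gm5611 and 4933404O12Rik had log2 ratios of -5.07, -4.60 and -3.23 in members beside -4.88, -4.67 and -3.22 in other cells. Such predicted or related-sequence gene models can share reads with near-identical copies, so their counts are uncertain.

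Some heart and splanchnic factors were higher at E10.5. Of 11 cardiac factors at 20 CPM or more, 4 were higher (Isl1, Nkx2-5, Tbx2 and Tbx20) and Tbx18 was lower, and of 6 splanchnic genes Isl1, Nkx2-5 and Osr1 were higher. Isl1 had 33.1 CPM at E9.5 and 96.9 at E10.5 (log2 ratio 1.55, 1.28 to 1.82), beside -0.53 in other cells. Nkx2-5 had 18.9 and 38.6 CPM (1.03), beside -1.27, and Tbx20 18.4 and 81.9 (2.16), beside 1.31. The Nkx2-5 ratio was close to the 2-fold limit, and 25.2% of its member UMIs at E10.5 lay in 1 cell. Osr1 had 10.2 and 39.2 CPM (1.94), beside -0.02. Cxcl12, a chemokine, had a log2 ratio of 2.05, beside 0.38, and Kdr, a VEGF receptor, 2.84 and 25.1 (3.14), beside -0.04. Kdr UMIs lay in 36 of the 185 members at E10.5 and no cell held more than 10% of them.

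**Figure D4:**
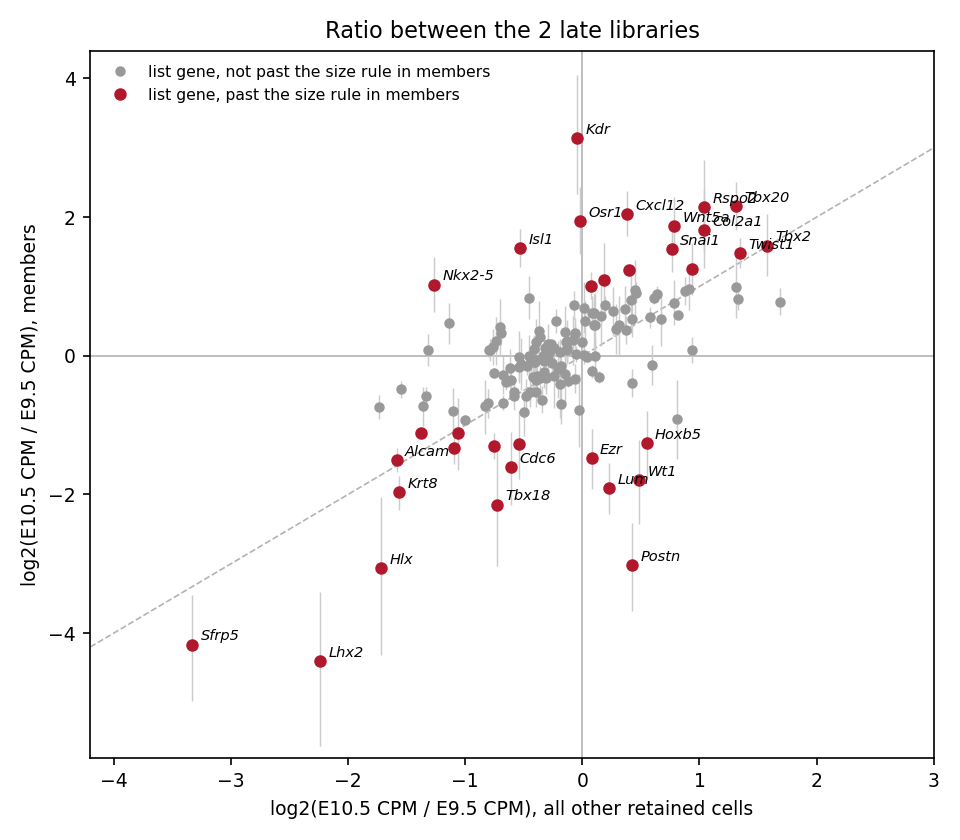
Log2 ratio of CPM at E10.5 over E9.5 in members (vertical, with the 95% counting interval as grey bars) against that in all other retained cells (horizontal), for 152 list genes at 20 CPM or more in members, blood genes left out. Red points are the 33 genes past the size rule in members; Isl1 (1.55 beside -0.53) and Postn (-3.02 beside 0.42) lie on opposite sides of 0 in the 2 sets, and the dashed line marks equal ratios.

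The largest ratios in favour of E10.5 belonged mostly to transcripts of blood cells. Alas2 and Cited4 were at 0 UMIs in members at E9.5 and at 67 and 78 at E10.5, at least 37.0-fold and 43.1-fold higher against a limit of 3 UMIs over the group. Ctla2a was likewise at 0 and 93 UMIs, at least 51.4-fold higher, with 68.8% of the UMIs in 1 cell. Pf4 had 9 UMIs at E9.5 and 1310 at E10.5, of which 94.9% lay in 1 cell, and 1 cell held 98.4% of the Ppbp UMIs and 76.4% of those of Itgb3. Car2 and Mt2 had their highest single-cell shares at 30.7% and 34.3%. Gsc, a homeodomain factor, had 0.947 CPM at E9.5 and 23.2 at E10.5 (log2 ratio 4.62, 3.33 to 6.28), beside 5.05 in other cells, and was spread over 42 members. Gm10320, likewise uncertain, had a log2 ratio of 3.71 beside 3.77 in other cells. Without the member cell richest in Pf4 and the one richest in haemoglobin, 155 genes were higher at E10.5 and 91 lower.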

How the data were processed

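Single-cell libraries made with the 10x 3′ kit were compared. The authors aligned reads and counted UMIs per gene and cell with Cell Ranger 3.1.0 on mm10, per the labels, and deposited filtered matrices of raw counts, 7581, 2956, 4055 and 8070 cells with 168407965, 110213770, 74920880 and 142850521 UMIs in stage order. Cells with at least 1000 genes and at most 10% mitochondrial UMIs were retained, which left out 4, 2, 3 and 28. The members, gene lists and tests were chosen with earlier results of these data known.

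Members and comparison cells were summed per late library. The sums were tested in R 4.3.3 with edgeR 4.0.16 (TMM, filterByExpr, quasi-likelihood, library as a block), called at an adjusted p below 0.05. Beside the test, a size rule asked for a 2-fold change in both libraries at 20 CPM. Of the called genes outside the 13 rule genes, changed the same way in both libraries and at 20 CPM or more in the higher class in both, the 10 with the largest and the 10 with the smallest log2 fold change were named, and between stages the 10 largest and 10 smallest ratios past the size rule. Mitochondrial, ribosomal protein, haemoglobin and X-inactivation genes were not named this way. List genes, rule genes and the 10 leading genes of each group were named beside these. Rates at 1 library carry exact 95% intervals.

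Members of a library were clustered with scanpy 1.11.5 (1000 variable genes, 15 components, 15 neighbours, Leiden resolution 0.6), with leading genes at 50 CPM or more. Doublets were kept, since the rule does not mention them. As an alternative the highest Scrublet scores were removed at 0.8% per 1000 cells, which took 8 of 284 members at E9.5 (2.82%, beside 3.23% of the library) and 19 of 185 at E10.5 (10.3%, beside 6.43%). Scrublet's own threshold marked 0.0247% and 1.14% of cells and was not used. Other alternatives were Hand1 at 2 UMIs, 3 of the 4 genes, thinning to 8000 UMIs, all barcodes, DESeq2 1.42.0, library totals, no filter and no block. Leaving out 2 member cells at E10.5, each library alone for the size rule, and genes with over 25% of UMIs in 1 cell were alternatives chosen after seeing the data. The tests were checked on simulated counts with a set spread and the same class difference in both libraries. That check could not show whether the calls on the real libraries hold. Some list genes are not reported here.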

Additional observations from a re-analysis of the deposited data

Results flagged for a closer look

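Members lay at least 1.5-fold below other retained cells at 1 late stage and at least 1.5-fold above at the other in 6 of 382 genes. Both differences were beyond counting error, with 20 CPM or more in members or other cells at each stage. The 382 genes were the list genes and those named for large changes in these data, at any level. The same count over all genes was not made. The difference between the stages was not tested, since each stage is 1 library. Isl1, a factor of second heart field progenitors, had a log2 ratio of members over other cells of -1.29 at E9.5 and 0.79 at E10.5, from 33.1 against 80.9 CPM to 96.9 against 56.0. Nkx2-5, a cardiac homeodomain factor, had -1.45 and 0.84, with 25.2% of its member UMIs at E10.5 in 1 cell. Tlx1 had -0.71 and 1.53, and Ppp1r14c had -0.74 and 0.85. Tagln had -0.60 and 0.65, with 19.95% of its UMIs at E10.5 in 1 cell. For Pf4, a gene of platelets and megakaryocytes, the values were -6.42 and 2.03, and 94.9% of its UMIs at E10.5 lay in 1 member cell.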

How the results depend on the processing

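The shares of members at the 2 late stages were 4.91% and 1.41% with Hand1 at 2 UMIs, 3.90% and 1.36% with 3 of the 4 genes, and 4.47% and 1.43% after thinning. Against all other cells 842 genes passed, beside 556 with doublets removed, 498 with Hand1 at 2 UMIs, 452 with DESeq2 and 1501 with no filter. Against the Upk3b-positive cells 488 passed, beside 193 with 3 of the 4 genes and 42 with DESeq2. Against the Hand1-zero cells 341 passed, beside 62 with DESeq2 and 754 with no filter. Between members with and without Gata4 335 passed, beside 82 with doublets removed, 154 with 3 of the 4 genes, 34 with DESeq2, 561 with library totals and 657 with no filter. Without the library block 0 genes passed edgeR's test in each of these comparisons, with 975, 465, 388 and 437 at an unadjusted p below 0.05. Between stages 259 genes passed the size rule, beside 423 after thinning. At resolution 0.3 members of either stage fell into 3 groups, and at resolution 1.0 those of E10.5 fell into 8. The cause of these moves was not tested. Scaled by library totals, the calls between members with and without Gata4 moved from 164 higher and 171 lower to 389 and 172, and the median of all genes against the other cells from -0.01 to 0.07. Alcam lay on opposite sides of the Gata4 comparison in the 2 libraries. For Lhx2 and Hlx no side could be given at E10.5, with 8 UMIs of each gene over all members. The Upk3b comparison with Hand1 at 2 UMIs or thinned, and the Gata4 comparison thinned, had under 20 cells in a class and gave no value. With 1 residual degree of freedom the p-values rest on 2 libraries that differ in stage, and a cell without a UMI is not shown to lack the transcript at this depth.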
